A study of Mus musculus with 32 samples.

Results

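The laminin chain genes Lama1, Lama2, Lama3, Lama4, Lama5, Lamb1, Lamb2, Lamc1 and Lamc3 and the netrin-4 gene Ntn4 were followed in brain arteries of mice with altered Notch3. These 10 genes of the 55357 in the read count table were found by their symbols, and all 10 passed the filter on low counts in every comparison. The set was chosen by protein family, and Ntn4 was selected on its measured level, which was higher in the CADASIL model than in its control mice. The values of Ntn4 in that contrast, and in any other that uses the same control mice, are therefore descriptions. Where its adjusted p passed or missed the threshold, this is said as part of how it was chosen, and nothing is read from it.

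Laminins are secreted trimers of an α, a β and a γ chain that polymerize on cell surfaces and, together with type IV collagen, nidogen and perlecan, form the basement membrane that surrounds every arterial smooth muscle cell and underlies the endothelium. The α chain carries the sites for integrins and dystroglycan and is what distinguishes the trimers of endothelium (α4 and α5), of the smooth muscle and astrocyte side of brain vessels (α2) and of the pial surface (α1). Netrin-4 resembles the short arm of a laminin β chain, binds the γ1 chain, and interferes with laminin polymerization. It is known as a basement membrane protein of blood vessels.

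The arteries came from 4 groups of 8 mice, with 1 library per mouse. Notch3-/- mice, which lack a functional gene for the receptor NOTCH3 of mural cells, and their Notch3+/+ littermates were 3 months old. TgNotch3R169C mice, the model of CADASIL, an inherited small vessel disease caused by NOTCH3 mutations, and their nontransgenic littermates (labelled non-Tg, called WT here) were 12 months old. None of the mice was treated. The transgene is an artificial chromosome with rat Notch3 carrying the R169C mutation, it sits on the X chromosome, and the mice keep both mouse copies of Notch3. The line was studied in both sexes, the sex of each mouse is not in the labels, and all lines had been backcrossed to C57BL/6.

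The libraries held 20289487 to 54481934 counted reads. As a check of the labels, Notch3 was at 13.7 to 18.5 CPM (counts scaled to library size, with TMM factors) in Notch3-/- mice against 65.8 to 98.1 CPM in Notch3+/+ mice, and at 108.0 to 218.8 CPM in TgNotch3R169C mice against 60.1 to 85.02 CPM in WT mice. All 8 smooth muscle markers and all 8 endothelial markers were detected in every group. The summed level of 6 choroid plexus markers was 8807 to 25440 CPM in 7 libraries (Notch3-/- replicate 8, WT replicates 2, 4, 5 and 6, and TgNotch3R169C replicates 5 and 8) and 225.8 to 650.5 CPM in the other 25, so values that rest on those 7 libraries are given with and without them. In Notch3+/+ replicate 5, the summed level of 6 pituitary markers was 8928 CPM.

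Promoter sequence from RefSeq, on GRCm38.p6 (the reads were counted on mm39), was at hand for 5 of the 10 genes, namely Ntn4, Lama2, Lama5, Lamb1 and Lamb2. Of these, 2 are shown, that of Ntn4, because its level in TgNotch3R169C mice did not overlap that in WT mice, and that of Lama2, because it was the only one of these genes whose levels did not overlap between the 2 control groups. Each is the 250 bases before the annotated start, 5′ to 3′ on the strand of the gene. Capitals mark TGGGAA, the core letters bound by RBPJ, the DNA-binding partner of NOTCH receptors, searched on both strands.
Ntn4, chr10:93640799-93641048, plus strand: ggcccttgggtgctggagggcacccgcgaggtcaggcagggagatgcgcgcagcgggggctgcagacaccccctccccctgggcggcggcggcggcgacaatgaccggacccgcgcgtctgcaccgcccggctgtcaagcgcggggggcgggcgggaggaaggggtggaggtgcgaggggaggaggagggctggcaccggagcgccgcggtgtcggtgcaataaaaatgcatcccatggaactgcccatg
Lama2, chr10:27616943-27617192, minus strand: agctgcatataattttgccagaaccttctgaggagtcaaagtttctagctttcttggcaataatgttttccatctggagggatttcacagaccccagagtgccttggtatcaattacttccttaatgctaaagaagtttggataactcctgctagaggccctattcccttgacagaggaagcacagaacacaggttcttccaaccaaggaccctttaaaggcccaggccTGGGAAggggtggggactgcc
The Ntn4 sequence had a G and C content of 73.2% and held no TGGGAA, and that of Lama2 had 47.2% and held 1, beginning 21 bases before the start. Lamb1 held 2 and Lama5 and Lamb2 held 0. Of 32851 mouse promoters of the same length, 7094 (21.6%) held these letters. A match is only a match of letters, and its absence says nothing about binding elsewhere.

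Levels of different genes were compared as CPM per kilobase of exon, averaged over all 32 libraries. The length counts every annotated exon of a gene, from 3741 bases for Ntn4 to 16338 for Lama2, so the order depends on it. Lamb2, the β2 chain of vascular basement membranes, stood highest at 126.4 ± 10.7 CPM per kb (SD, n = 32), with 98.0 CPM per kb in its lowest library. It was followed by the γ chains Lamc1 (57.8 ± 5.40) and Lamc3 (42.2 ± 5.51), and every library of Lamb2 lay above every library of both. Ntn4 came next at 20.3 ± 3.64 CPM per kb, although in WT mice it stood at 16.4 CPM per kb, below Lama5 at 18.04. The α chains Lama5 (17.7 ± 2.17), Lama4 (16.6 ± 1.97), Lama2 (16.2 ± 2.10) and Lama1 (14.0 ± 1.83) followed as neighbors whose ranges overlapped one another and that of Ntn4. Lamb1 stood at 9.58 ± 3.53 CPM per kb and Lama3 at 3.71 ± 0.767. Lamb3, a β chain of epithelia, was also low, at 0.627 ± 0.217 CPM per kb.

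By CPM per kb, the arteries had very unequal shares of the β genes and nearly even shares of 4 α genes. Lamb2 made up 93.2% ± 1.050 (SD, n = 8) of the β chain level in Notch3+/+ mice and 92.2% ± 2.82 in TgNotch3R169C mice. Among the α chains of Notch3+/+ mice, Lama4 held 25.8% ± 1.62, Lama2 24.6% ± 1.34, Lama5 24.4% ± 1.29, Lama1 19.5% ± 2.001 and Lama3 5.82% ± 0.748. Not divided by length, the means in these mice were less even. They were 287.2 CPM for Lama2, 222.2 for Lama4, 198.6 for Lama5 and 135.6 for Lama1. Ntn4, at 85.3 CPM, was below all 4. The near-even shares thus depend on the exon lengths used. In WT mice Lama5 held 27.6% ± 2.55 and Lama2 21.8% ± 0.817, and in TgNotch3R169C mice they held 26.1% ± 3.43 and 24.1% ± 2.04. These shares include the libraries rich in choroid plexus markers. Without those libraries Lama5 was at 190.2 ± 9.51 CPM in WT mice (n = 4) and 189.9 ± 29.05 CPM in TgNotch3R169C mice (n = 6). Lama2 was at 236.3 ± 10.9 and 267.3 ± 28.4 CPM in the same libraries. The shares are of RNA and do not count protein trimers.

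Of the 10 genes, Ntn4 had the largest log2 difference between the groups aged 12 months. In WT mice it lay between 55.8 and 66.2 CPM, with a median of 61.2. In TgNotch3R169C mice it lay between 68.9 and 86.5 CPM, with a median of 75.5. Every TgNotch3R169C mouse lay above every WT mouse, as for 0.130% of the genes tested (the reverse held for 0.0113%), and the gap between the groups was smaller than the range within either. The fitted difference was 0.32 on the log2 scale (SE 0.05, 95% CI 0.21 to 0.42), a fold of 1.25. It was not called in 1 fit of all 4 groups or with the replicate number as a block. At 3 months Ntn4 lay between 64.8 and 109.6 CPM in Notch3+/+ mice (median 82.8) and between 63.0 and 104.8 CPM in Notch3-/- mice (median 82.0). The level in TgNotch3R169C mice thus fell inside the range of both younger groups, and the WT mice aged 12 months were the group that stood lowest. The spread was also narrowest there, with an SD of 3.35 CPM in WT mice against 14.2 CPM in Notch3+/+ mice.

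**Figure D1:**
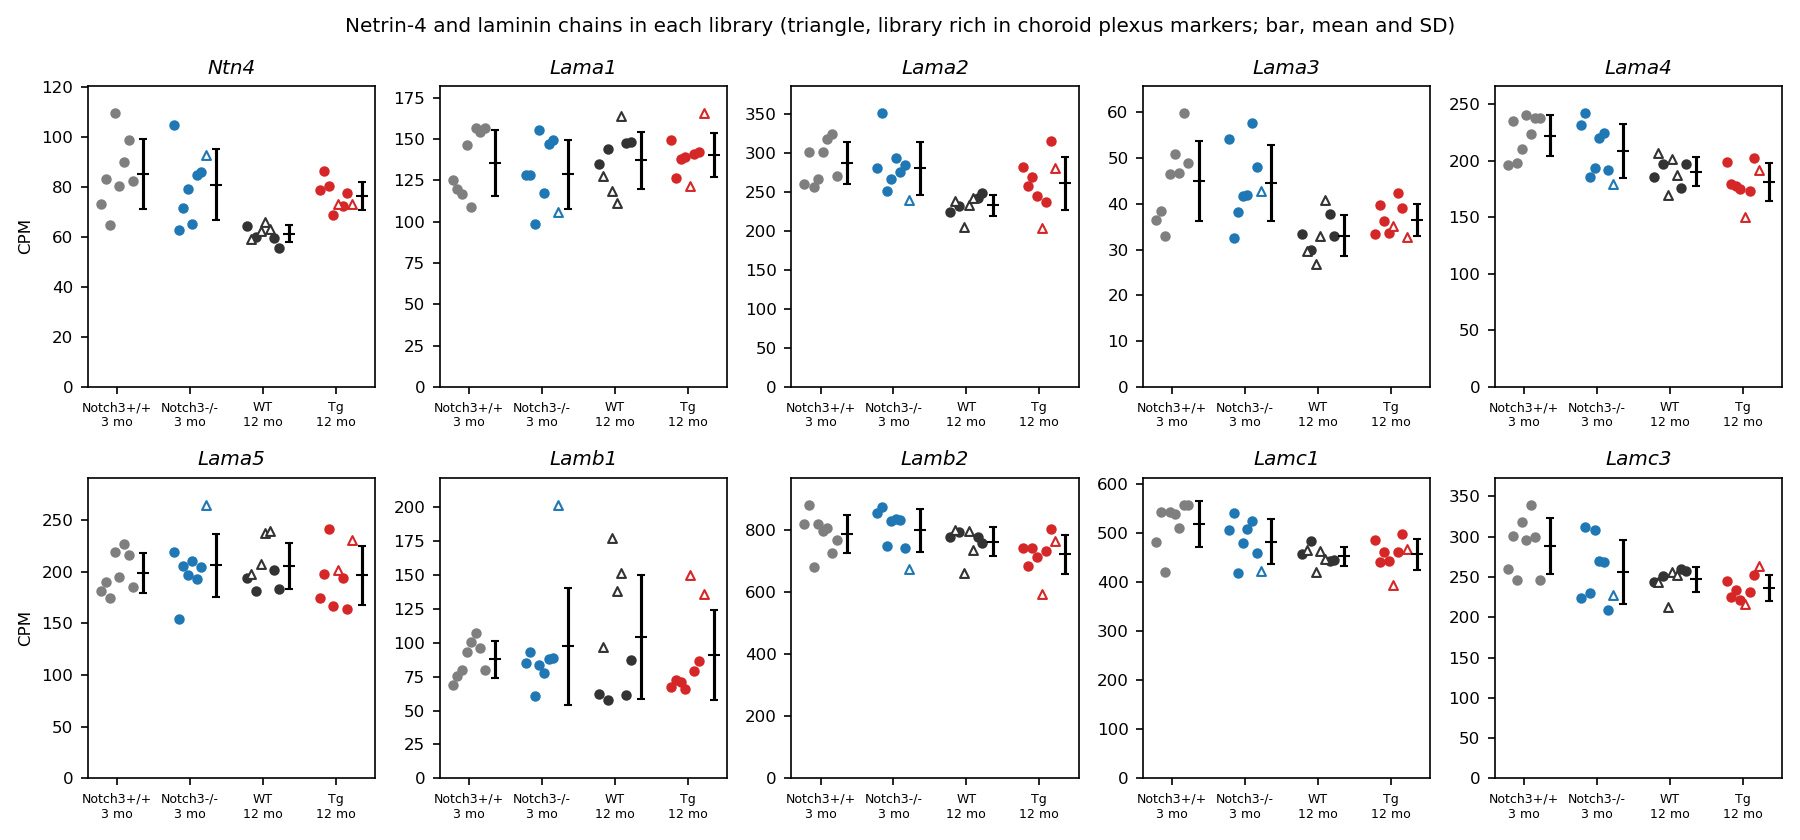
Level of Ntn4 and the 9 laminin chain genes in CPM (vertical axes, from 0) in each of the 32 libraries, by group (Tg, TgNotch3R169C). Points are mice, open triangles the 7 libraries rich in choroid plexus markers, and bars the group mean with its SD (n = 8); Ntn4 in TgNotch3R169C mice (68.9 to 86.5 CPM) lies above all WT mice (55.8 to 66.2 CPM).

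Ntn4 overlapped between libraries rich and poor in choroid plexus markers. In WT mice it was at 59.1 to 66.2 CPM in the 4 libraries rich in them and at 55.8 to 64.3 CPM in the 4 others. In TgNotch3R169C mice the 2 rich libraries were at 73.2 and 73.4 CPM and the 6 others at 68.9 to 86.5. With the rich libraries left out the difference was 0.37 on the log2 scale, and it was not called in these 10 libraries. Several marker lists lay to one side of 0 in the same contrast, and none of the markers that follow was called. All 8 smooth muscle markers were below 0 (median log2 difference -0.23, summed level 1128 to 1725 CPM against 1350 to 2063 CPM in WT mice), and all 8 neuron markers were above 0 (median 0.40, 324.6 to 1056 CPM against 198.1 to 668.9 CPM). All 8 astrocyte markers (median 0.16) and 7 of 8 endothelial markers (median 0.08) were above 0 as well. Their part in the value of Ntn4 was not tested.

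The laminin chains themselves were spread around 0 in TgNotch3R169C mice. Of the 10 genes, 1 passed an adjusted p below 0.05 in this contrast, Ntn4, which had been chosen for it, and 0.113% of the 17731 genes tested did so (0.102% higher and 0.0113% lower). The 9 laminin log2 fold changes ran from -0.20 for Lamb1 to 0.17 for Lama2, with 4 above and 5 below 0, and the median over the 10 genes was -0.03 against -0.0074 over all genes tested. Lama2, the α2 chain lost in a congenital muscular dystrophy, was at 203.4 to 315.0 CPM in TgNotch3R169C mice (median 262.9) and at 205.0 to 248.5 CPM in WT mice (median 235.4). Of the 8 TgNotch3R169C mice, 5 lay above the highest WT mouse and 1 below the lowest, and the log2 difference was 0.17 (SE 0.07, 95% CI 0.01 to 0.32). Lama3 was at 32.7 to 42.3 CPM in TgNotch3R169C mice (median 35.7) against 26.8 to 40.8 CPM in WT mice (median 33.0), a log2 difference of 0.14 (SE 0.08). The abundant chains Lamb2 and Lamc1 had log2 differences of -0.08 (SE 0.06) and 0.01 (SE 0.05). Outside the 10 genes, Lamb3 had a log2 difference of 0.41 (SE 0.16) at 4.16 to 8.18 CPM in TgNotch3R169C mice and 3.24 to 5.93 CPM in WT mice. Lamb3 was not called, and its levels overlapped between these groups.

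In Notch3-/- mice none of the 10 genes was called by edgeR's quasi-likelihood test, where 0.649% of the 17714 genes tested were (0.198% higher and 0.452% lower). At an unadjusted p below 0.05 there were also 0 of 10, against 1363 of the 17714 genes tested, and DESeq2 and limma voom also called 0. Ntn4 was 0.07 lower on the log2 scale (SE 0.11, 95% CI -0.31 to 0.17, adjusted p = 0.964 by edgeR), so its 95% interval ran from a fold of 0.806 to one of 1.12. Only 1 Notch3-/- mouse lay below the lowest Notch3+/+ mouse and 0 above the highest. For the 9 laminin chains the log2 fold changes ran from -0.17 for Lamc3 (SE 0.09) to 0.15 for Lamb1 (SE 0.19), and the 95% intervals together spanned folds of 0.779 to 1.46. Lamc3, a γ chain of the central nervous system and other tissues, was at 208.7 to 312.4 CPM in Notch3-/- mice (median 249.7) and at 245.8 to 339.6 CPM in Notch3+/+ mice (median 297.7). Below the Notch3+/+ range lay 4 of the 8 Notch3-/- mice, with an edgeR adjusted p of 0.739. Lama1, which lies on chromosome 17 as Notch3 does, differed by -0.07 (SE 0.11). No gene of the 10 had groups that did not overlap, where 0.0903% of genes did so with higher and 0.231% with lower levels in Notch3-/- mice. Beside these values, 6 of 8 smooth muscle markers were called lower in the same mice, and 7 were below 0. The median log2 fold change over the 8 was -0.63. Their summed level was 1666 to 2520 CPM against 2420 to 4238 CPM. In bulk arteries fewer cells of a type and less RNA per cell cannot be told apart. Whether Ntn4 changed differently in the 2 mutants was not tested.

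**Figure D2:**
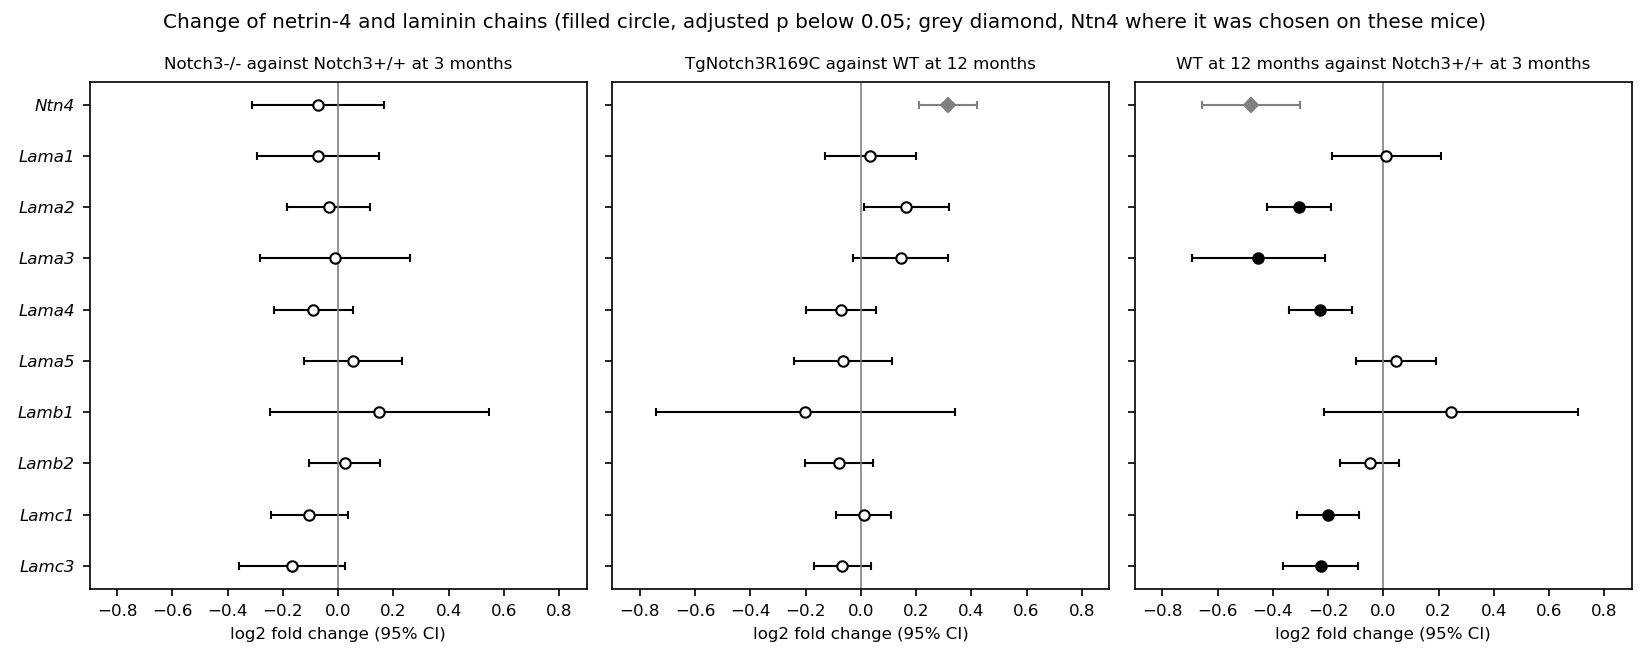
Log2 fold change of Ntn4 and the 9 laminin chain genes with its 95% CI (horizontal axes) in the 3 comparisons, with filled circles for an edgeR adjusted p below 0.05 and a grey diamond for Ntn4 in the 2 comparisons that use the mice on which it was chosen. No circle is filled for Notch3-/- or TgNotch3R169C mice, and 5 laminin chains, all lower at 12 months, are filled between the control groups.

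Between the control groups, 5 laminin chains were called lower in WT mice aged 12 months than in Notch3+/+ mice aged 3 months. These mice differ in age and also in line and litter, which cannot be told apart, and the WT mice are the same as in the contrast with TgNotch3R169C mice. Of the 9 laminin chains 5 were called lower and 0 higher, where 7.92% of the 17643 genes tested were called, 4.05% lower and 3.87% higher. Ntn4 passed too, but it was chosen against these WT mice and is not counted. The median log2 difference of the 9 chains was -0.20 against 0.0026 over all genes. For each of the 5 called chains, all 8 WT mice lay below the mean of the Notch3+/+ mice. These 5 were picked by their calls in the same mice, so this adds nothing to the calls.

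Ntn4 differed by -0.48 on the log2 scale (SE 0.08, 95% CI -0.66 to -0.30), a fold of 0.717, and 7 of the 8 WT mice lay below the lowest Notch3+/+ mouse. As the WT mice are those against which Ntn4 was chosen, this is a description too. Lama2 was at 256.5 to 323.7 CPM in Notch3+/+ mice (median 286.0) and at 205.0 to 248.5 CPM in WT mice (median 235.4), so the groups did not overlap, as for 0.845% of genes in this direction and 0.391% in the other. It fell by 0.31 on the log2 scale (SE 0.05, edgeR adjusted p = 0.00368). Lama3, an α chain of epithelia, was at 32.9 to 59.8 CPM (median 46.6) and at 26.8 to 40.8 CPM (median 33.0), with 3 of 8 WT mice below the Notch3+/+ range. Its log2 fold change was -0.45 (SE 0.11, edgeR adjusted p = 0.0233). Lama4, the endothelial α4 chain, was at 195.8 to 240.3 CPM (median 228.9) and at 169.9 to 206.6 CPM (median 192.4), with 4 of 8 WT mice below the range. Its log2 fold change was -0.23 (SE 0.05, edgeR adjusted p = 0.0170).

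Both abundant γ chains were lower by a small margin. Lamc1, the γ1 chain of most trimers, was at 420.9 to 557.7 CPM in Notch3+/+ mice (median 540.4) and at 419.8 to 484.5 CPM in WT mice (median 452.2). Only 1 WT mouse lay below the Notch3+/+ range, and the log2 fold change was -0.20 (SE 0.05, edgeR adjusted p = 0.0305). Lamc3 was at 245.8 to 339.6 CPM (median 297.7) and at 212.4 to 260.0 CPM (median 251.7), a log2 fold change of -0.23 (SE 0.06, edgeR adjusted p = 0.0396). Leaving out 1 mouse at a time, Lamc1 was called in 9 of 16 fits and Lamc3 in 6, whereas Lama2, Lama3 and Lama4 were called in all 16. Ntn4 also passed in all 16, but it was chosen against these WT mice and nothing is read from this. Lamc1 lost its call without Notch3+/+ replicates 2, 4, 5, 7 or 8 or WT replicates 4 or 6, and Lamc3 without Notch3+/+ replicates 2, 4, 5, 6 or 7 or WT replicates 1, 2, 4, 5 or 6. With the replicate number as a block both lost their call, and Lamc3 also lost it with no filter and in 1 fit of all 4 groups.

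Lamb2, Lama1, Lama5 and Lamb1 were not called between the control groups. Lamb2 was at 682.6 to 882.7 CPM in Notch3+/+ mice (median 802.5) and at 662.9 to 802.9 CPM in WT mice (median 778.0), a log2 difference of -0.05 (95% CI -0.16 to 0.06, edgeR adjusted p = 0.596). Lama5, the α5 chain of endothelium and smooth muscle, differed by 0.05 (95% CI -0.10 to 0.19), with a range over all 32 libraries of 154.6 to 264.8 CPM. Lama1, the chain of the pial surface, differed by 0.01 (95% CI -0.19 to 0.21), with a range of 98.4 to 165.5 CPM. Whether these chains moved less than the 5 that were called was not tested.

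Beside this result, all 8 smooth muscle markers were lower in WT mice aged 12 months, with a median log2 difference of -0.78 and a summed level of 1350 to 2063 CPM against 2420 to 4238 CPM. Of the endothelial markers 1 of 8 was called lower (Pecam1). The 8 ran from -0.52 to 0.30, with 7 below and 1 above 0 and a median of -0.20. Of the fibroblast and leptomeningeal markers 3 of 8 were called lower (Col1a1, Col1a2 and Col3a1). These 8 ran from -0.76 to 0.74, with 6 below and 2 above 0 and a median of -0.09. Called higher were 4 of 7 oligodendrocyte, 4 of 6 choroid plexus and 2 of 6 pericyte markers. Of the astrocyte markers 2 of 8 were called higher and 1 lower, and of the macrophage and microglia markers 1 of 8 was called lower. Their part in the laminin and netrin-4 values was not tested. In the 12 libraries poor in choroid plexus markers, 8 Notch3+/+ and 4 WT, the log2 difference was -0.51 for Ntn4, -0.29 for Lama2, -0.43 for Lama3, -0.24 for Lama4, -0.19 for Lamc1 and -0.19 for Lamc3, and none of the 5 chains was called.

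Lamb1, the β1 chain, had the highest coefficient of variation of the 10 genes in the 3 groups with libraries rich in choroid plexus markers (44.6% in Notch3-/-, 44.1% in WT and 36.2% in TgNotch3R169C mice), and its high values sat in those libraries. In Notch3+/+ mice, which had none, it was 15.3%, below Lama3 at 19.4% and Ntn4 at 16.6%. In Notch3-/- mice it was at 201.8 CPM in the 1 rich library and at 60.9 to 93.2 CPM in the 7 others. In WT mice it was at 97.1 to 177.1 CPM in the 4 rich libraries against 57.9 to 87.1 CPM in the 4 others, and in TgNotch3R169C mice at 135.7 and 150.0 CPM in the 2 rich libraries against 65.6 to 86.3 CPM in the 6 others. Every rich library thus exceeded every poor one of its group. Notch3+/+ mice were at 69.2 to 107.3 CPM. The log2 fold change of Lamb1 took the opposite sign without the rich libraries in all 3 comparisons, going from 0.15 to -0.08 in Notch3-/- mice, from -0.20 to 0.13 in TgNotch3R169C mice and from 0.24 to -0.39 between the control groups, and it was not called in any of these fits. Lama5 was also highest in the rich library of the Notch3-/- group, at 264.8 CPM against 154.6 to 218.7 CPM.

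**Figure D3:**
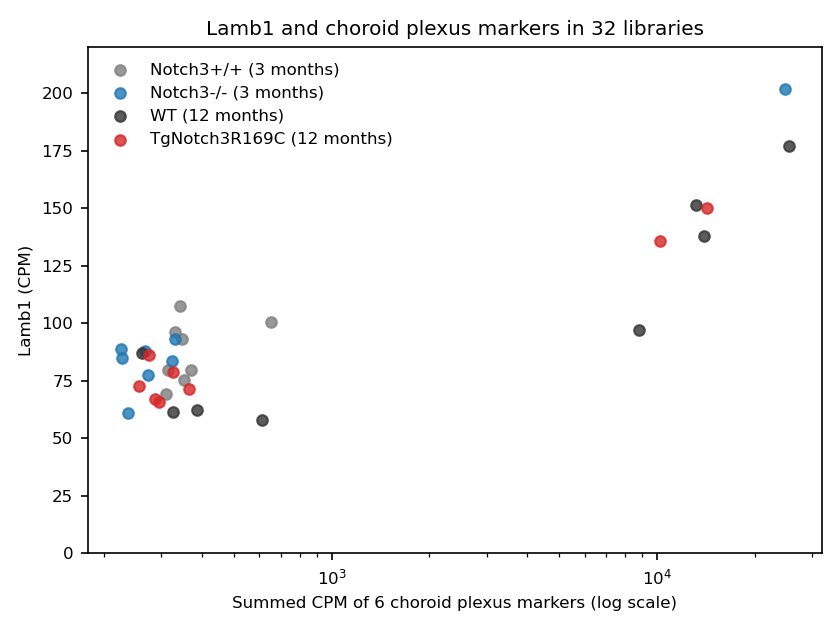
Lamb1 in CPM (vertical axis) against the summed CPM of 6 choroid plexus markers (horizontal axis, log scale) in 32 libraries, colored by group. The 7 libraries at 8807 CPM or above hold the 7 points on the right, from 97.1 to 201.8 CPM of Lamb1, and the other 25 hold 57.9 to 107.3 CPM.

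Lama2, Lama4, Lamb2 and Lamc1 varied together from mouse to mouse. After removal of the group means, the 45 pairs of the 10 genes had a median Pearson's r of 0.228 over the 32 libraries, from -0.445 for Lamb1 with Lamb2 to 0.867 for Lama4 with Lamc1. The lowest rested on the libraries rich in choroid plexus markers, and without them it was 0.139. The 6 pairs among Lama2, Lama4, Lamb2 and Lamc1 ran from 0.652 to 0.867, and from 0.414 to 0.827 in the libraries poor in choroid plexus markers. Lamc3 lay near them, at 0.613 with Lama2, 0.611 with Lamb2, 0.563 with Lamc1 and 0.465 with Lama4. In the poor libraries its values were 0.555, 0.562, 0.503 and 0.361, which overlapped those of the 6 pairs. Ntn4 followed another order, with 0.624 for Lama3 and 0.56 for Lama5 and values from -0.0439 to 0.24 for the other 7 chains. Lamb1 was highest with Lama5 at 0.54, which was 0.0758 without the rich libraries, where it was highest with Lama2 at 0.577. The 2 values of Ntn4 were 0.699 and 0.596 without them. These values are descriptions over libraries that share cell makeup and depth, and the grouping of the 4 genes was chosen after their values were seen.

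**Figure D4:**
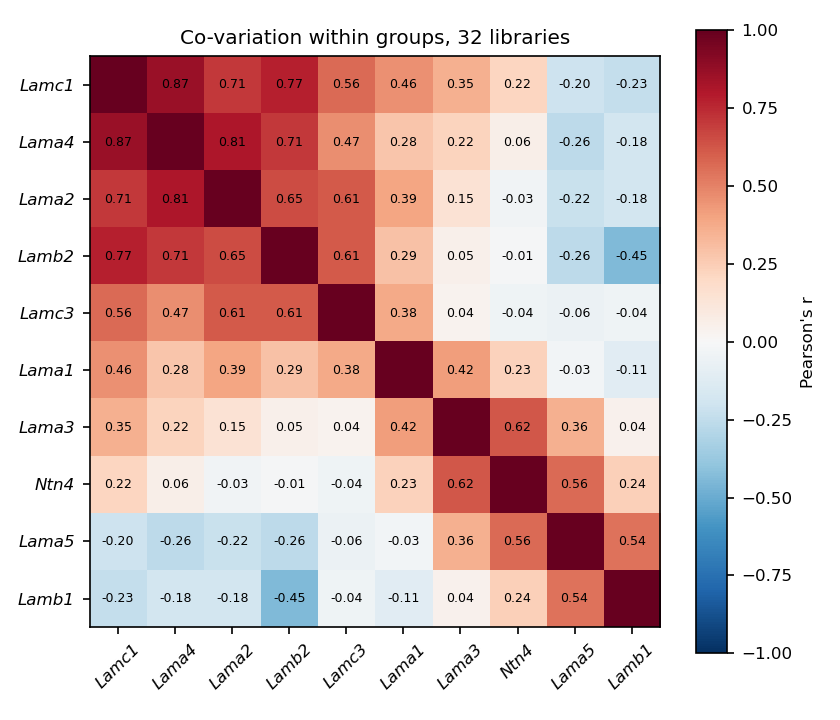
Pearson's r of log2 CPM between the 10 genes over 32 libraries after removal of group means (color and number in each square). The upper left block holds Lamc1, Lama4, Lama2 and Lamb2 at 0.652 to 0.867, and the lower right corner holds the links of Ntn4 with Lama3 and Lama5.

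The 5 genes most like Ntn4, by Pearson's r of log2 CPM over all 32 libraries among 18554 genes, were Col4a1 (0.831), Eln (0.825), Mall (0.823), Pecam1 (0.818) and Ehd4 (0.807). Col4a1 encodes the α1 chain of type IV collagen, Eln elastin and Pecam1 an endothelial adhesion molecule. Like Ntn4, each had its lowest group mean in WT mice aged 12 months. Eln was at 839.5 ± 123.0 CPM in Notch3+/+ mice, 703.3 ± 153.6 in Notch3-/- mice, 533.9 ± 66.2 in WT mice and 801.8 ± 111.3 in TgNotch3R169C mice (SD, n = 8). Differences between groups enter these correlations, and they share the WT mice against which Ntn4 was chosen.

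The partners that bind laminin in the basement membrane were read from lists. None of the 12 basement membrane partners was called in Notch3-/- mice (0.649% of all genes were) or in TgNotch3R169C mice (0.113%), and 6 were called between the control groups (7.92%). These shares are the background for the lists that follow as well. Col4a1, at 347.1 to 463.8 CPM in Notch3+/+ mice and 226.2 to 288.8 CPM in WT mice, fell by 0.60 on the log2 scale (SE 0.07). Col4a2, its partner in the main type IV collagen trimer, at 236.9 to 297.6 CPM and 160.7 to 201.4 CPM, fell by 0.58 (SE 0.06). Neither overlapped between the control groups, as for 0.845% of genes in this direction. Nid1, which links laminin γ1 to type IV collagen, fell by 0.35 (SE 0.05), Col4a5 by 0.32 (SE 0.05) and Col18a1 by 0.23 (SE 0.05). Col4a4 rose by 1.02 (SE 0.19), with 13.4 ± 2.40 CPM in Notch3+/+ mice and 27.3 ± 10.01 CPM in WT mice. Its WT values were 28.8 to 40.5 CPM in the 4 libraries rich in choroid plexus markers and 17.3 to 20.8 CPM in the 4 others, and without the rich libraries the log2 difference was 0.47 (SE 0.13) and not called. Without them Col18a1 also lost its call (log2 difference -0.26), while Col4a1, Col4a2, Nid1 and Col4a5 remained called at -0.66, -0.61, -0.29 and -0.33. The edgeR adjusted p of these 6 ran from 0.000109 for Col4a2 to 0.0117 for Col18a1. In TgNotch3R169C mice Col4a1 was at 296.5 to 411.1 CPM, above all WT mice, as for 0.130% of genes, with a log2 difference of 0.35 (SE 0.08) that was not called (edgeR adjusted p = 0.146). Col4a2, at 191.2 to 264.2 CPM, overlapped the WT mice, with a fold of 1.21. Over the 12 partners in this contrast, 6 were above and 6 below 0, with a median log2 difference of 0.0044.

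**Figure D5:**
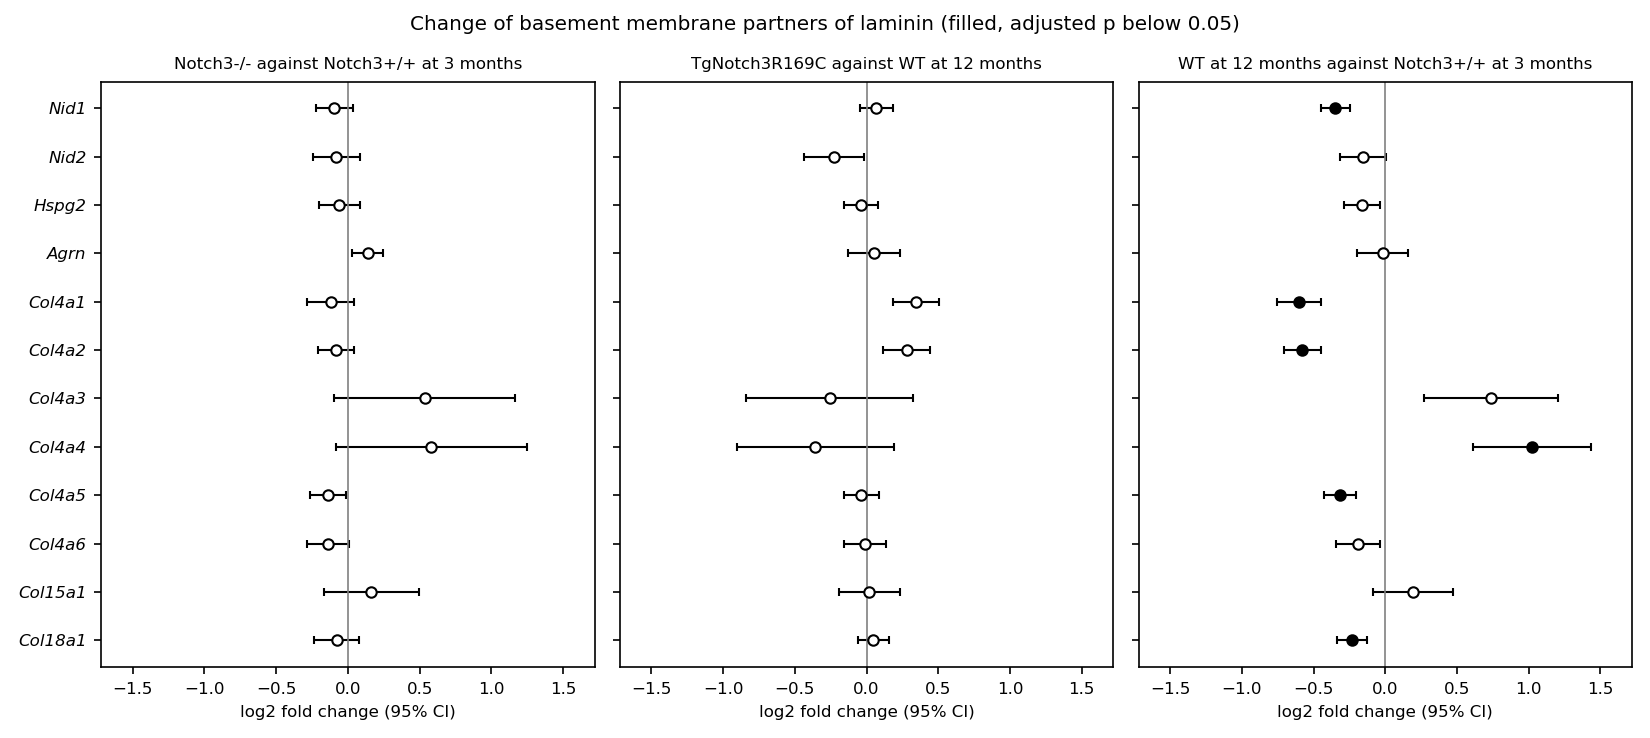
Log2 fold change with its 95% CI (horizontal axes) of 12 basement membrane partners of laminin in the 3 comparisons, with filled points for an edgeR adjusted p below 0.05. The only filled points are the 6 between the control groups, of which Col4a4 is higher and Nid1, Col4a1, Col4a2, Col4a5 and Col18a1 are lower.

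Of 12 laminin receptors and co-receptors, 0 were called in either mutant and 3 between the control groups. Itgb1, the β1 subunit of most laminin-binding integrins, fell by 0.41 on the log2 scale (SE 0.05, edgeR adjusted p = 0.00042), from 752.7 ± 62.4 to 568.5 ± 33.5 CPM. Itga1, whose integrin binds collagen and laminin, fell by 0.36 (SE 0.06, edgeR adjusted p = 0.00306). Itgb4, the partner of integrin α6 in hemidesmosomes, rose by 0.33 (SE 0.09, edgeR adjusted p = 0.0362). All 3 were also called without the libraries rich in choroid plexus markers. Bcam, a receptor for laminin α5, had a mean of 287.7 ± 31.3 CPM in Notch3+/+ mice, and in TgNotch3R169C mice it was 285.9 ± 33.8 CPM.

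Dystroglycan, another laminin receptor, ties the basement membrane to dystrophin or utrophin inside the cell. In its complex of 10 genes, Sgca, the α-sarcoglycan of muscle, was the one gene called in Notch3-/- mice, where it fell by 0.84 (SE 0.19, edgeR adjusted p = 0.0469), at 0.665 to 1.67 CPM against 1.44 to 3.07 CPM. Without Notch3-/- replicate 8, the library rich in choroid plexus markers, it was 0.75 lower and not called (edgeR adjusted p = 0.0562). It also fell by 0.76 (SE 0.16, edgeR adjusted p = 0.00908) between the control groups, where Sgcb rose by 0.17 (SE 0.04, edgeR adjusted p = 0.0150), and neither was called there without the rich libraries, at log2 differences of -0.76 and 0.15. None of the 10 was called in TgNotch3R169C mice. The 9 genes that glycosylate dystroglycan, which laminin needs for binding, gave 0 calls in all 3 comparisons, with log2 fold changes from -0.21 to 0.35. Pomgnt1, which adds a sugar to the glycan of dystroglycan, was at 66.0 ± 3.45 CPM in Notch3+/+ mice. It was at 84.5 to 125.9 CPM in the 7 libraries rich in choroid plexus markers and at 60.5 to 72.8 CPM in the other 25.

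Netrin-4 belongs to a family of secreted and membrane-anchored guidance proteins. Of 5 other netrins, 0 were called in either mutant and Ntng2 alone was called between the control groups, where it rose by 0.37 (SE 0.10, edgeR adjusted p = 0.0305), a call not made without the libraries rich in choroid plexus markers (log2 difference 0.45). Ntn1, the most abundant at 30.3 CPM per kb over 32 libraries, was at 185.5 ± 13.1 CPM in WT mice and 191.3 ± 34.0 CPM in TgNotch3R169C mice. None of 6 netrin receptors was called in any comparison. In TgNotch3R169C mice 5 of the 6 were above 0, with a median log2 difference of 0.28 and a highest of 0.85. All 8 neuron markers were above 0 in the same contrast (median 0.40), and their part in these values was not tested. The 2 most abundant were Neo1, at 199.2 ± 17.4 CPM in WT mice and 215.3 ± 21.5 CPM in TgNotch3R169C mice, and Unc5b, at 24.9 ± 4.37 and 27.0 ± 3.51 CPM.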

How the data were processed

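RNA was measured in brain arteries of 32 mice. Poly(A)-selected, stranded libraries were sequenced, and the authors deposited raw counts of reads per Ensembl gene, not normalized, in 1 table. Per the labels' processing notes the build was mm39 and the tools were bcl2fastq 2.20.0.422, cutadapt 1.10, Bowtie2 2.2.8, STAR 2.5.3a and HTSeq 0.6.1p1; whether counting used strand is not given in the sources used here. Lama2, Lama3 and Lamc3 share 631, 197 and 382 exonic bases with a gene on the opposite strand. No replicates were duplicates (chi-square per gene at least 10.2).

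Groups were taken from the labels. Counts were filtered with filterByExpr, scaled by TMM and tested with edgeR 4.0.16's quasi-likelihood test in a fit of the 2 groups compared (R 4.3.3), with Benjamini-Hochberg adjustment over all genes tested and calls at an adjusted p below 0.05. Intervals are 95% CIs of that fit and cover counting error and the spread between mice. Total counts were 20289487 to 54481934 per library. Exon lengths, chromosomes and overlaps came from GENCODE vM21 (GRCm38). An exon length is the union of all annotated exons of the gene, over all its transcripts. Log2 CPM for correlations had a pseudocount of 0.5. The procedure was tested on simulated data. The genes and lists were chosen with earlier results of these data known. Named genes are the 10 genes, Notch3, Lamb3, partner genes called in any comparison or among the 2 most abundant of their list, and the 5 genes most correlated with Ntn4; the markers Pecam1, Col1a1, Col1a2 and Col3a1 were named after their values were seen. Some genes of the rule are not reported here.

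Alternatives were RLE scaling, DESeq2 1.42.0, no filter, a minimum of 10 counts in each library, limma voom (limma 3.58.1), 1 fit of all 4 groups, the replicate number as a block, and leaving out each mouse. Libraries with at most 1000 summed CPM of choroid plexus markers were also analysed alone, a choice made after seeing the data.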

Additional observations from a re-analysis of the deposited data

Results flagged for a closer look

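Of 40 sets of 8 libraries (10 genes in 4 groups), 3 held a library apart from the rest by Dixon's ratio of gap to range, and chance gives about 2. Lamb1 in Notch3-/- replicate 8 was the highest of its group at 201.8 CPM, with the next at 93.2 (ratio 0.77). Lamc3 in WT replicate 4 was the lowest of its group at 212.4 CPM, with the next at 243.3 (ratio 0.65). Lamb2 in WT replicate 4 was the lowest of its group at 662.9 CPM, with the next at 736.6 (ratio 0.52602, just above the critical value). Both libraries are among the 7 rich in choroid plexus markers.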

How the results depend on the processing

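Of the alternative values of all results, 826 were classed as the same. For log2 differences this means the same sign and side of the threshold. For counts called it means within 1.5 times, and for mean CPM within the SD of the group. Of the rest, 32 changed sign, 42 fell below the threshold or by over 1.5 times and 4 rose in that way. DESeq2 called 280, 74 and 2365 genes in Notch3-/- mice, TgNotch3R169C mice and between the control groups, against 115, 20 and 1398 with edgeR, and 1 fit of all 4 groups called 174 in Notch3-/- mice. In TgNotch3R169C mice the count of the 10 genes called went from 1 to 0 with 1 fit of all 4 groups. It was also 0 with the replicate number as a block and in libraries poor in choroid plexus markers. The log2 difference of Ntn4 was between 0.29 and 0.37 over all fits in this contrast. All of them use mice on which Ntn4 was chosen, so nothing is read from this range. Genes called were 6 with the block and 2 in the libraries poor in these markers, and 11 to 26 with 1 mouse left out (12 without TgNotch3R169C replicate 1, 11 without WT replicates 3 or 4 and 13 without WT replicate 7). Between the control groups they were 715 with the block, 402 in the libraries poor in choroid plexus markers and 895 to 1621 with 1 mouse left out (895 without Notch3+/+ replicate 7), and 4, 1 and 4 to 6 of the 10 genes were called. Each of these counts of the 10 genes includes Ntn4, from which nothing is read. The labels pair no mice, and same-numbered mice deviated together (r above 0.1) in 4, 4 and 3 of 8 pairs, so the numbers were not taken as pairs, and the block changed no other call of the 10 genes.

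The changes of sign were of log2 differences near 0 or of Lamb1. In libraries poor in choroid plexus markers these were 0.00041 for Lama2, 0.0025 for Lama3 and -0.0829 for Lamb1 in Notch3-/- mice, -0.0431 for Lama1 and 0.13 for Lamb1 in TgNotch3R169C mice, and -0.0658 for Lama5 and -0.39 for Lamb1 between the control groups, where Lama1 was -0.0014 with no filter. With 1 mouse left out, Lama2 ran from -0.0784 to 0.00041, Lama3 from -0.0714 to 0.0649, Lamb1 from -0.0829 to 0.23 and Lamb2 from -0.0024 to 0.0603 in Notch3-/- mice, Lama1 from -0.0048 to 0.0736 and Lamc1 from -0.0096 to 0.0451 in TgNotch3R169C mice, and Lama1 from -0.0323 to 0.0453 between the control groups. The cause was not tested. The fit without the libraries rich in choroid plexus markers rests on fewer mice (4 WT and 6 TgNotch3R169C). Of the laminin chains, Lamb3 rested on the fewest reads, 66 to 347 a library. The partner gene Sgca was lower still, with a mean of 1.24 CPM in Notch3-/- mice against 3.05 CPM for Lamb3.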
